A study of Drosophila melanogaster with 18 samples.

Results

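The sex determination genes *Sxl*, *tra*, *tra2*, *dsx*, *fru*, *ix* and *her* form the cascade that sets somatic sex in *Drosophila*. The 7 genes were chosen by name and taken from a table of 16624 genes, and all 7 were found in it. The table holds RNA-seq profiles of the second antennal segment, the seat of the hearing organ of the fly, Johnston's organ (JO). The flies were virgins of the wild-type strain Canton-S, sampled as males at 1, 5, 10, 25 or 50 days of age and as females at the same ages except day 10. Each of the 9 combinations of age and sex has 2 libraries, 18 in all, so that no group carries a transgene, a mutation or a treatment. The labels do not say whether the libraries of a group came from separate sets of flies, and p-values measure only the spread between these samples, which may be technical.

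In flies with a pair of X chromosomes the RNA-binding protein SXL is made and keeps its own transcript, and that of *tra*, in the female splice form. TRA, together with its partner TRA2, then directs the female splicing of *dsx* and *fru*, which encode transcription factors. Without SXL the male forms of *dsx* and *fru* are made by default, and both genes are known for building sex differences in neurons, cuticle and behaviour, hearing-guided courtship among them. Most of the known regulation is therefore of splicing, whereas the values here are sums over all transcripts of a gene, so that the female and male forms of *Sxl*, *tra*, *dsx* and *fru* were counted together.

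The annotation shows how much of each gene such a sum mixes (dm6 coordinates). *Sxl* lies on chromosome X at 7074550 to 7098053 on the minus strand and has 25 annotated transcripts, with only 9.71% of its exonic bases shared by every transcript. *fru* lies on 3R at 18414273 to 18545586 on the minus strand and has 15 transcripts, which share 7.77% of its exonic bases. *dsx* lies on 3R at 7924323 to 7967408 on the minus strand, with 7 transcripts that share 16.5%. The remaining genes are compact. *tra* lies on 3L at 16590059 to 16591050 on the minus strand, with 2 transcripts of 36 and 197 codons. *tra2* lies on 2R at 14602004 to 14604337 on the minus strand, with 7 transcripts. *ix* lies on 2R at 11359437 to 11360163 on the minus strand, with 1 transcript, and *her* on 2L at 16677185 to 16679691 on the plus strand, with 2 transcripts. Of the exonic bases of *tra*, 8.58% overlap a neighbour on the opposite strand. Reads from overlapping neighbours cannot be told apart, since the library kit does not mark strand, and the values of *tra* are uncertain to that extent.

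All 7 genes were detected in every library. Reads per library ran from 1640 to 4414 for *Sxl*, from 1396 to 3082 for *fru*, from 295 to 563 for *dsx*, from 122 to 476 for *tra2*, from 126 to 335 for *her*, from 89 to 199 for *ix* and from 67 to 213 for *tra*. Levels of different genes were compared as normalised read counts per kb of annotated exon. On this scale *Sxl* was highest, at 292 ± 69.6 (SD, n = 18 libraries). It was followed by *ix* at 183 ± 39.5, *tra2* at 159 (range 84.9 to 240.0), *tra* at 142 ± 34.2 and *fru* at 122 ± 23.0 (SD, n = 18 each). The values of these genes overlapped between libraries, and neighbours in this order lay closer to each other than the spread of their libraries, apart from *Sxl* and *ix*. *her* was lower, at 93.7 ± 16.3, and *dsx* lowest, at 47.6 ± 8.81 (SD, n = 18 each), with its highest library at 69.8 against a lowest *her* library of 66.5. The order depends on the annotated exons, which for *Sxl*, *fru* and *dsx* include many that only some transcripts use.

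The libraries held between 5815182 and 14315927 reads in genes (median 12194186). The defining markers of JO neurons (*iav*, *nan*, *nompC*, *btv*, *tilB*) were present in all 18 libraries, with a summed normalised count of 2039 to 3395. Markers of other tissues varied far more. The summed count of 4 retina genes ran from 303 to 95037, that of 6 genes of the third antennal segment from 9887 to 47839, that of 4 fat body genes from 1814 to 22913 and that of 3 muscle genes from 1620 to 64906. In such bulk samples, fewer cells of a type and less RNA per cell cannot be told apart.

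Sex labels were checked against the *roX1* and *roX2* RNAs of the male dosage compensation complex and the yolk protein genes *Yp1*, *Yp2* and *Yp3*, which are female-specific in the fat body. Up to day 25 both sets followed the labels: summed *roX* counts were 16050 to 36180 in the 8 male libraries and 457 to 890 in the 6 female libraries, and summed *Yp* counts were 127 to 319 in males and 867 to 35593 in females. At day 50 the 2 sets did not go together. The library labelled female, replicate 2 (CT18) had a *roX* sum of 17284, within the male range, beside 1216 in female replicate 1 (CT17), but its *Yp* sum of 45028 was at the female level of CT17 (54606). The library labelled male, replicate 2 (CT16) had a *Yp* sum of 61450, above every female library, beside 4663 in male replicate 1 (CT15), itself above the earlier male libraries, but its *roX* sum of 23080 was within the male range. Each of these libraries thus held the markers of both sexes. The main results on the members that use day 50 are therefore given with and without CT16 and CT18, and the main comparison of the sexes uses days 1, 5 and 25.

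**Figure D1:**
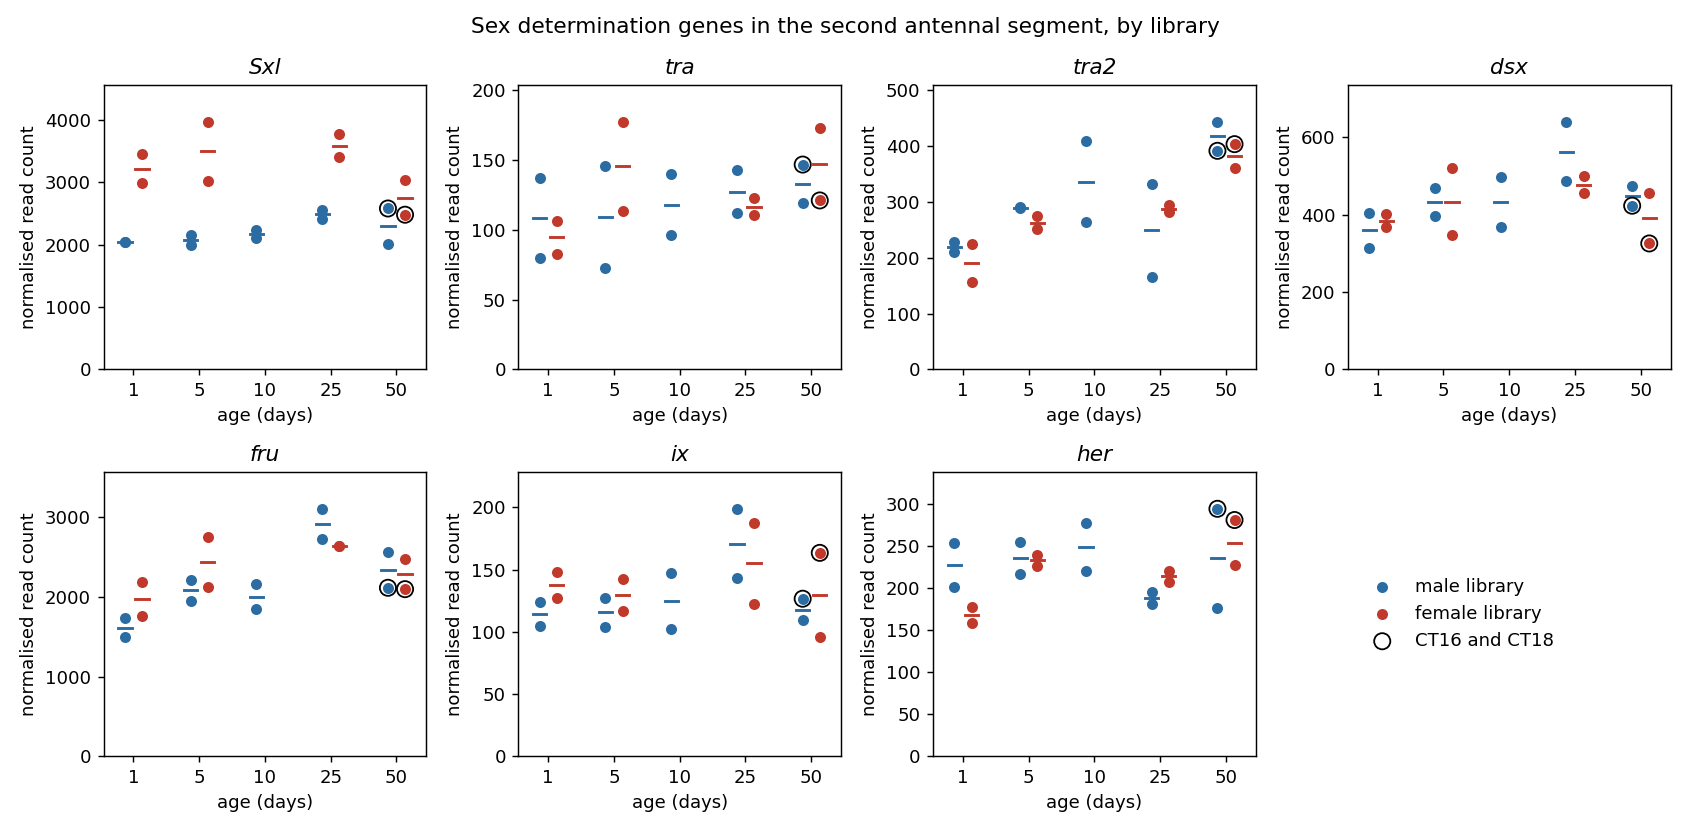
Normalised read count (vertical axes, linear from 0) of each of the 7 genes against age in days, with 1 point per library, a bar at the mean of the 2 libraries of a group, males in blue and females in red; black circles mark CT16 and CT18, the day 50 libraries in which 1 of the 2 sets of sex markers goes against the label. In *Sxl* every female library up to day 25 lies above every male library, and in *tra2* the 4 libraries of day 50 lie above the 4 of day 1.

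*Sxl*, the master switch of the cascade, was the only 1 of the 7 genes whose total RNA level passed the test between the sexes. In males *Sxl* had normalised counts of 2051 and 2039 (day 1), 2154 and 1993 (day 5), 2238 and 2107 (day 10) and 2559 and 2414 (day 25). In females the counts were 2993 and 3448 (day 1), 3967 and 3023 (day 5) and 3769 and 3404 (day 25). The lowest female library was thus above the highest male library, with no overlap up to day 25. Over days 1, 5 and 25, males were lower by a log2 fold change of -0.64 (SE 0.10, 95% interval -0.86 to -0.42, limma adjusted p = 0.00284), that is, *Sxl* was 1.56-fold higher in females. Calls required an adjusted p below 0.1 and a fold change above 1.5. By this rule 2.73% of the 14663 tested genes were lower in males, 0.409% higher and 3.14% changed in either direction. The libraries of the sexes did not overlap in this direction in 0.58% of tested genes.

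The difference in *Sxl* stood close to the fold limit. With age and sex as added terms, which brings in day 50, it was -0.55 (limma adjusted p = 0.00342), and without female day 5 replicate 1, the highest of all libraries, it was -0.57 (limma adjusted p = 0.015). In both cases the adjusted p remained below 0.1 and the fold fell under 1.5. Age by age, none of the differences passed. *Sxl* had -0.65 in males of day 1 (limma adjusted p = 0.227), -0.74 in those of day 5 (limma adjusted p = 0.106) and -0.53 in those of day 25 (limma adjusted p = 0.515). At these ages 0.0273%, 0.505% and 0.0546% of tested genes were called lower in males. DESeq2 run on the whole reads called *Sxl* lower in males at day 1 (-0.66, adjusted p = 0.0949) and at day 5 (-0.75, adjusted p = 0.0161). In either direction DESeq2 called more genes than limma at these ages, 204 beside 7 at day 1 and 429 beside 91 at day 5.

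*Sxl* is X-linked, and X-linked genes as a class were lower in males. Over days 1, 5 and 25 the median log2 fold change of the 2282 tested X-linked genes was -0.32, beside 0.07 for the 12204 genes of the major autosome arms. Of the X-linked genes 379 (16.6%) were called lower in males, against 22 (0.18%) of the autosomal genes. The *Sxl* value of -0.64 lay 0.32 below the X-linked median, and 687 X-linked genes (30.1%) had a difference as low or lower, beside 271 autosomal genes (2.22%). The position of *Sxl* in the X-linked distribution was thus not at its edge. Whether the lower *Sxl* level in males goes with the X chromosome or with regulation of the gene cannot be told apart from these values. The other 6 members are autosomal.

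**Figure D2:**
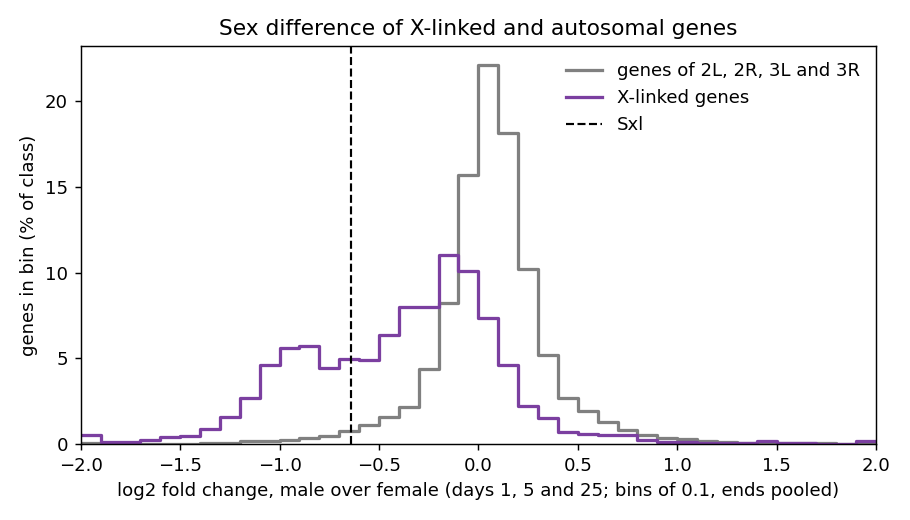
Share of genes (vertical axis, percent of each class) by log2 fold change of males over females at days 1, 5 and 25 (horizontal axis, bins of 0.1 with values beyond 2 in the end bins), for 2282 X-linked genes in purple and 12204 autosomal genes in grey. The dashed line marks *Sxl* at -0.64, where 30.1% of X-linked and 2.22% of autosomal genes lie at or to its left.

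At day 50 the *Sxl* counts were 2010 in CT15 and 2581 in CT16, both labelled male, and 3032 in CT17 and 2481 in CT18, both labelled female. CT17 was above and the other 3 libraries within or near the male range of the earlier ages, and the labelled sexes overlapped. The difference at day 50 was -0.27 (95% interval -0.65 to 0.12, limma adjusted p = 0.621). Without CT16 and CT18, which leaves 1 library for each sex, whose spread is taken from the other groups, it was -0.59 (limma adjusted p = 0.293). With all 4 ages but without these libraries, an alternative chosen after the data had been seen, the male level of *Sxl* was lower by -0.63 (limma adjusted p = 0.00277). No gene at all was called between the sexes at day 50, where 1535 genes had an unadjusted p below 0.05 and DESeq2 called 97. The male-minus-female change of *Sxl* from day 1 to day 50 was 0.38 (95% interval -0.16 to 0.93, limma adjusted p = 0.581), and 0.06 without CT16 and CT18 (limma adjusted p = 0.957), so that a change of the sex difference with age was not shown.

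**Figure D3:**
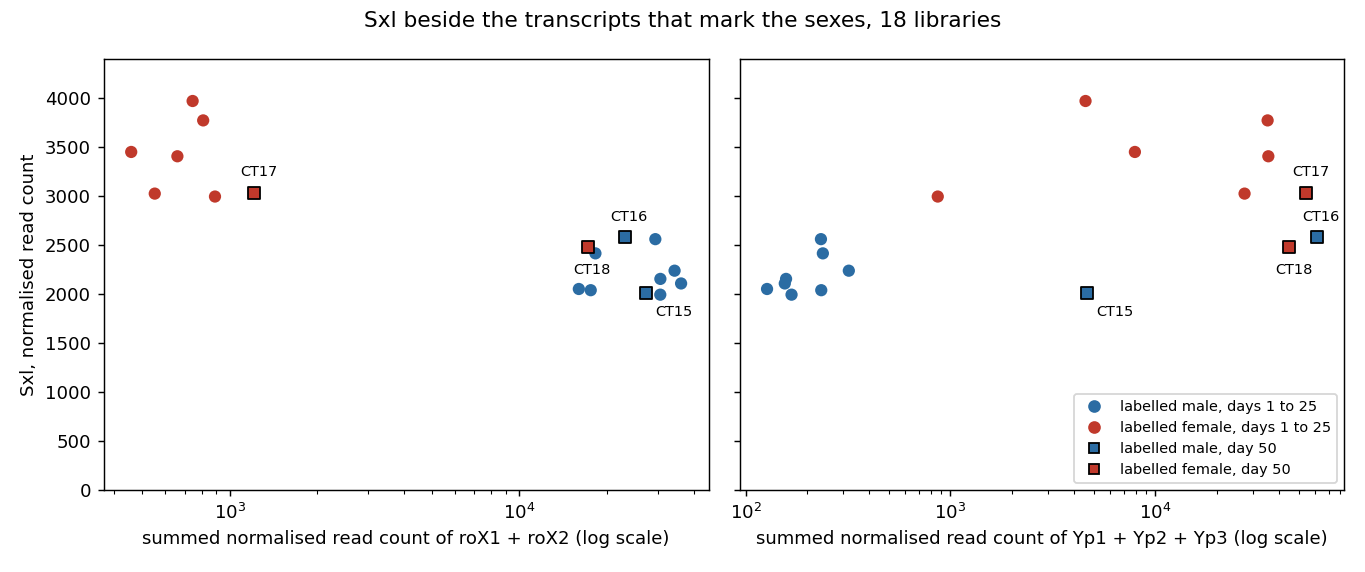
Normalised *Sxl* count (vertical axis) against the summed normalised counts of *roX1* and *roX2* (left) and of *Yp1*, *Yp2* and *Yp3* (right), both on log axes, with 1 point per library, colour for the labelled sex, and squares with names for day 50. By *roX* both CT16 and CT18 lie among the male libraries. By *Yp* CT18 lies among the female libraries and CT16 above all of them. The *Sxl* counts were 2581 in CT16 and 2481 in CT18.

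*tra* and *tra2*, which carry the signal from SXL to their splicing targets, did not pass the test for a difference in level between the sexes. For *tra* the 6 male libraries of days 1, 5 and 25 ran from 72.7 to 145 with a median of 124, and the 6 female libraries from 82.6 to 177 with a median of 112. The ranges overlapped, and the log2 fold change was -0.06 (95% interval -0.53 to 0.40, limma adjusted p = 0.986). For *tra2* the male libraries ran from 166 to 331 with a median of 259 and the female libraries from 157 to 293 with a median of 263, again with overlap (log2 fold change 0.03, 95% interval -0.33 to 0.39, limma adjusted p = 0.994).

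The terminal transcription factor genes *dsx* and *fru* were likewise close between the sexes in total level. The *dsx* counts ran from 315 to 640 (median 437) in males and from 347 to 522 (median 429) in females over days 1, 5 and 25. The *dsx* log2 fold change was 0.05 (95% interval -0.26 to 0.35, limma adjusted p = 0.984). The *fru* counts ran from 1492 to 3104 (median 2084) in males and from 1764 to 2745 (median 2411) in females, with a log2 fold change of -0.12 (95% interval -0.35 to 0.11, limma adjusted p = 0.864). In both genes the range of the females lay inside that of the males.

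*ix*, which encodes a Mediator subunit that works with the female form of DSX, ran from 104 to 199 in males and from 116 to 188 in females (log2 fold change -0.09, 95% interval -0.49 to 0.31, limma adjusted p = 0.972). *her*, which encodes a zinc finger protein needed for female differentiation, ran from 181 to 255 in males and from 158 to 239 in females (log2 fold change 0.09, 95% interval -0.23 to 0.40, limma adjusted p = 0.964). The intervals of all 6 autosomal members ended short of a 1.5-fold difference in either direction. The median log2 fold change of the 7 members was -0.06, beside 0.04 over all tested genes. The use of splice forms was not measured.

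**Figure D4:**
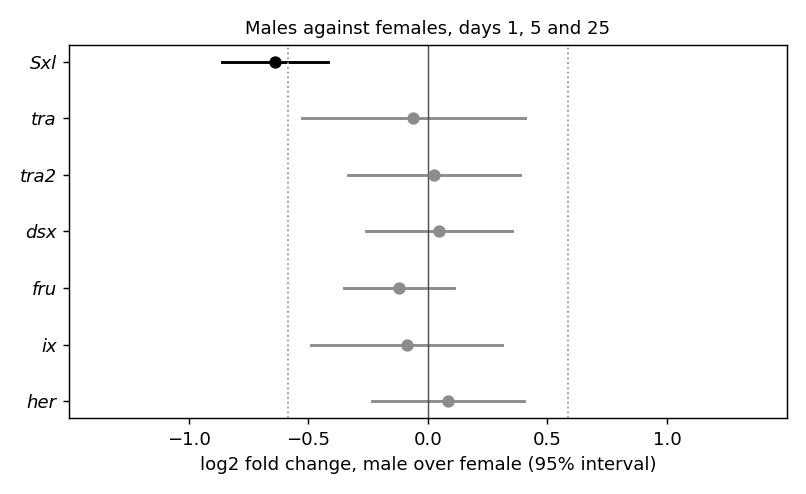
Log2 fold change of males over females at days 1, 5 and 25 (horizontal axis) for the 7 genes, with points for the limma estimates and lines for their 95% intervals; dotted lines mark a fold change of 1.5. Only *Sxl*, in black, passed the test at -0.64, and the intervals of the other 6 genes, in grey, include 0.

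Of the genes that act upstream of *Sxl* or beside it, none of 8 genes of X counting and of the *Sxl* promoter and none of 13 genes of *Sxl* splicing and of m6A methylation, an RNA mark that aids it, was called between the sexes over days 1, 5 and 25. Their median log2 fold changes were 0.03 and 0.02, beside 0.04 over all tested genes. In this comparison 3.14% of all tested genes were called, so that lists of this size could hold none at that share. The most abundant members were *emc* (0.03, limma adjusted p = 0.99), a helix-loop-helix inhibitor, and *da* (0.03, limma adjusted p = 0.989), its helix-loop-helix target, in the first list. In the second they were *fl(2)d* (-0.05, limma adjusted p = 0.971), a subunit of the methylation complex needed for *Sxl* splicing, and the reader *YT521-B* (0.02, limma adjusted p = 0.994). None of 8 SR proteins and their kinases was called either, among them *B52* at -0.05 (limma adjusted p = 0.977) and the kinase *Doa* at 0.24 (limma adjusted p = 0.594).

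Among 3 genes tied to SXL in translation, none passed both limits, but the values of 2 of them lay under the limit of adjusted p. *msl-2*, whose translation SXL represses in females, had a log2 fold change of 0.46 (SE 0.12, limma adjusted p = 0.0548), with means of 647 in males and 487 in females. *N*, an X-linked receptor gene that SXL also represses, had -0.52 (SE 0.10, limma adjusted p = 0.00614), with means of 1459 in males and 2086 in females. The median of X-linked genes in this comparison was -0.32. *Unr*, the partner of SXL on *msl-2* mRNA, had 0.03 (limma adjusted p = 0.988). At day 50 *msl-2* stood at 794 in CT15, 789 in CT16 and 454 in CT17, and at 761 in CT18, the library labelled female with male *roX* levels.

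Further downstream, 7 of 10 effector genes that differ between the sexes in other tissues were called here. Of these, 5 were lower and 2 higher in males over days 1, 5 and 25, beside 2.73% and 0.409% of all tested genes. The median log2 fold change was -1.47 over the 10, beside 0.04 over all tested genes. *Yp2* (-6.61, limma adjusted p = 2.11e-05), *Yp3* (-6.47, limma adjusted p = 8.02e-05) and *Yp1* (-5.11, limma adjusted p = 0.000105) were lower in males, as was *fit* (-2.76, limma adjusted p = 0.0119), a female-enriched fat body gene. The *Yp* genes had also served to check the labels, and these ages were kept because the sex markers followed the labels there. Their calls here are therefore not a separate result. Higher in males were *Cyp4d21*, also called *sxe1*, at 3.62 (limma adjusted p = 0.000105) and the lipase-like gene *sxe2* at 3.23 (limma adjusted p = 2.22e-07), both known from the male head. *to*, the most abundant of the list, had 0.13 (limma adjusted p = 0.955). Fat body markers had summed counts of 2070 to 22913 in males and 1814 to 6434 in females up to day 25, and their part in these differences was not tested.

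The *sxe2* values of day 50 also differed between the libraries labelled female. In the library labelled female CT18 *sxe2* had a count of 3798, near the 4523 and 3860 of CT15 and CT16 and above the 1289 of CT17. Retina markers summed to 95037 in CT15, 75232 in CT16 and 50954 in CT18, beside 2928 in CT17. The part of head tissue in the *sxe2* values was not tested. Of the 10 effector genes none was called between the sexes at day 50, where no tested gene was. Among 8 genes of the DM domain family and of regulators related to DSX, only *retn*, a neuronal repressor of male behaviour, was called over days 1, 5 and 25, at 0.95 (limma adjusted p = 0.071), with means of 132 in males and 66.9 in females. *bab2*, the most abundant of them, had -0.43 (limma adjusted p = 0.0821). None of 5 FRU partners was called, with *lola* at 0.03 (limma adjusted p = 0.979) and *chinmo* at 0.09 (limma adjusted p = 0.941). Of all tested genes 3.14% were called over these ages.

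With age, only *tra2*, the splicing cofactor of TRA, passed the test when all libraries were used. The *tra2* counts, with the 2 males before the 2 females, were 211, 229, 157 and 224 in the youngest flies, of day 1, and 290, 289, 251 and 274 in flies of day 5. Males of day 10 had 263 and 409. The counts were 331, 166, 282 and 293 in day 25 flies, then 443, 391, 361 and 403 in day 50 flies. All 4 libraries of day 50 lay above all 4 of day 1 and all 4 of day 25, and male day 25 replicate 2 was the lowest male library of all. From day 1 to day 50 *tra2* rose by a log2 fold change of 0.97 (SE 0.21, 95% interval 0.53 to 1.41, limma adjusted p = 0.00288), 1.96-fold. By the same rule 9.21% of tested genes were higher and 12.8% lower at day 50 than at day 1, and in 10.1% of genes the libraries did not overlap in the upward direction. Without CT16 and CT18 the rise was 0.97 (limma adjusted p = 0.0259). Between days 1 and 5 the *tra2* libraries did not overlap either, as in 7.54% of all tested genes, but the difference of 0.44 was not called (limma adjusted p = 0.197).

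The rise of *tra2* over the whole span was called within both sexes, at 0.92 in males (limma adjusted p = 0.0548; 5.76% of genes higher) and 1.02 in females (limma adjusted p = 0.031; 8.68% of genes higher). The male-minus-female change was -0.10 (95% interval -0.98 to 0.78, limma adjusted p = 0.939). Without CT16 and CT18 the values were 1.01 in males (limma adjusted p = 0.127) and 0.94 in females (limma adjusted p = 0.159), and neither was called.

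From day 25 to day 50 *tra2* rose by 0.61 (SE 0.21, limma adjusted p = 0.0386), where 9.78% of genes were higher, and 11% did not overlap upward. This call did not hold widely. It was lost in edgeR (0.58, adjusted p = 0.043) and in DESeq2 (0.58, adjusted p = 0.0323), both under the fold limit. It was lost without male day 25 replicate 2, at 0.37 (limma adjusted p = 0.192), and without CT16 and CT18, at 0.62 (limma adjusted p = 0.165). It was also lost without female day 25 replicate 2 (0.63, limma adjusted p = 0.105), without male day 50 replicate 1 (0.57, limma adjusted p = 0.0845) and without female day 50 replicate 2 (0.57, limma adjusted p = 0.111). The step from day 25 to day 50 within males, 0.82 (limma adjusted p = 0.0835; 8.17% of genes higher), fell to 0.33 (limma adjusted p = 0.596) without male day 25 replicate 2. It was not called either without male day 50 replicate 1 (0.73, limma adjusted p = 0.21) or replicate 2 (0.91, limma adjusted p = 0.204). In females the step was 0.41 (limma adjusted p = 0.388; 2.88% of genes higher).

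**Figure D5:**
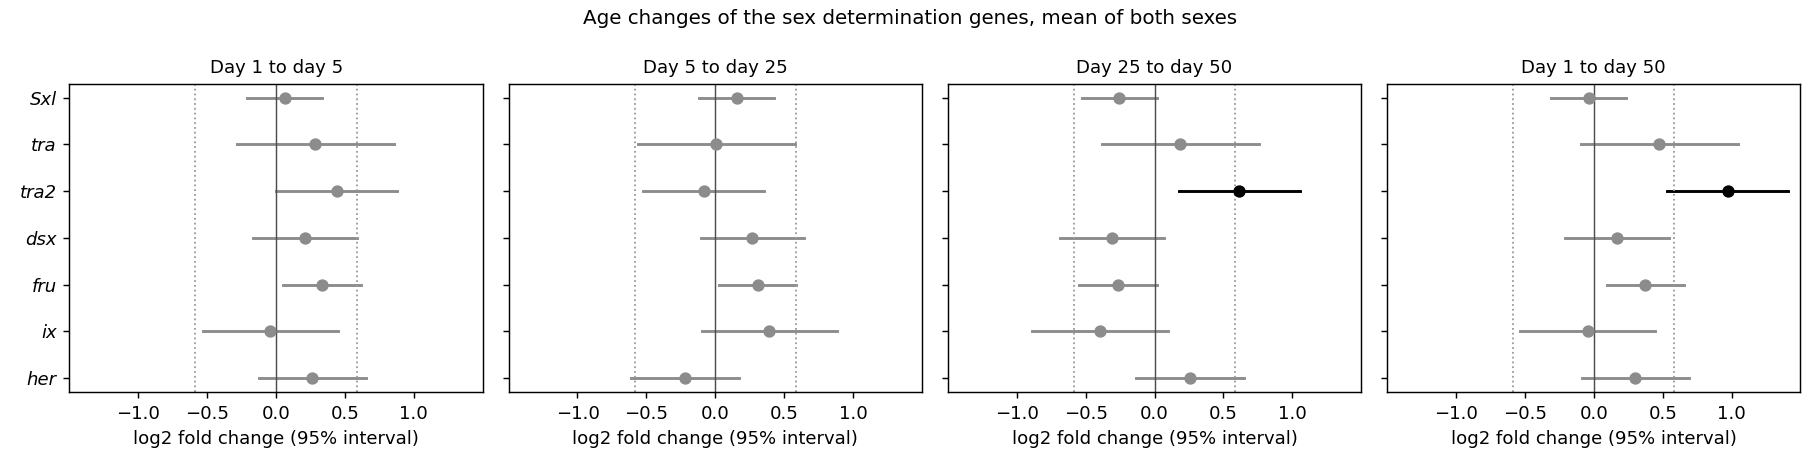
Log2 fold change (horizontal axes) of the 7 genes between days 1 and 5, 5 and 25, 25 and 50, and 1 and 50, as the mean of both sexes, with points for the limma estimates and lines for their 95% intervals; dotted lines mark a fold change of 1.5. Called changes are in black, and are those of *tra2* between days 25 and 50 (0.61) and over the whole span (0.97).

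Tissue markers moved over the same span. Summed counts of muscle markers were 38272 to 64906 at day 1 and 1620 to 2306 at day 50, and those of scolopale and glia markers 28845 to 34559 and 6367 to 11158. The fall of the latter sum was that of *nrv2*, with means of 30162 at day 1 and 7813 at day 50. The other scolopale and glia markers did not fall, with means of 304 and 399 for *nompA* and 444 and 483 for *repo*, neither called. Neuron markers had 8382 to 10765 at day 1 and 8404 to 10607 at day 50, and retina markers 3629 to 18465 and 2928 to 95037. The part of these shifts in the *tra2* rise was not tested.

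*fru*, a zinc finger transcription factor gene of courtship circuits, had the next most marked age profile. The *fru* counts, males first, were 1731, 1492, 2189 and 1764 in flies of day 1 and 2214, 1952, 2745 and 2119 in flies of day 5. They were 2729, 3104, 2632 and 2643 in day 25 flies, then 2561, 2114, 2479 and 2096 in day 50 flies. The 4 libraries of day 25 were the highest as a group and lay above those of day 50 without overlap. Male day 25 replicates 1 and 2 had the fewest reads in genes of all libraries, 5815182 and 6414483. Replicate 2 held the highest *fru* and *dsx* counts of all libraries. The part of depth in these values was not tested. From day 1 to day 50 the *fru* log2 fold change was 0.37 (SE 0.13, limma adjusted p = 0.054), under the fold limit, and the steps between neighbouring ages were 0.33 (limma adjusted p = 0.118), 0.31 (limma adjusted p = 0.15) and -0.27 (limma adjusted p = 0.138). Between days 25 and 50, 8.93% of all tested genes did not overlap in the downward direction. Left without CT16 and CT18, the last *fru* step was -0.14 (limma adjusted p = 0.617) and the difference over the whole span 0.50 (limma adjusted p = 0.053), still under the fold limit.

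In males *fru* had 2156 and 1848 at day 10. The step to day 25, over which 29% of tested genes were called in males, was 0.54 (limma adjusted p = 0.0496), again under the fold limit. From day 1 to day 50 it was 0.53 in males (limma adjusted p = 0.0811) and 0.21 in females (limma adjusted p = 0.471). With CT16 left out the male value was 0.67 (limma adjusted p = 0.0865), and with CT18 left out as well it was 0.67 (limma adjusted p = 0.0944). Both pass the fold limit, so that *fru* was then called higher in males of day 50. The female value without both was 0.34 (limma adjusted p = 0.429). The difference between the male and female changes, 0.32, was not called (95% interval -0.24 to 0.88, limma adjusted p = 0.659), nor was it without these libraries (0.34, limma adjusted p = 0.691).

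The other 5 members were not called in any of the 4 age comparisons of both sexes, with or without CT16 and CT18. The steps of *Sxl* between days 1 and 5, 5 and 25, and 25 and 50 were 0.06, 0.16 and -0.26 (limma adjusted p = 0.829, 0.485 and 0.141). *dsx* was highest at day 25, at 487 and 640 in males, the libraries with the fewest reads, and 456 and 501 in females. Over the whole span its difference was 0.17 on the log2 scale (95% interval -0.21 to 0.54, limma adjusted p = 0.535). *tra* had 0.48 over the same span (95% interval -0.09 to 1.05, limma adjusted p = 0.222), *her* 0.30 (95% interval -0.09 to 0.69, limma adjusted p = 0.257) and *ix* -0.04 (95% interval -0.54 to 0.45, limma adjusted p = 0.911). The intervals of *tra* and *her* reach past a 1.5-fold rise, so that a change of this size is not excluded. The values over the whole span without CT16 and CT18 were -0.05 for *Sxl*, 0.33 for *dsx*, 0.53 for *tra*, 0.04 for *her* and -0.29 for *ix* (limma adjusted p = 0.855, 0.343, 0.33, 0.919 and 0.529). Between days 25 and 50 they were -0.27, -0.15, 0.24, -0.0022 and -0.64 in the same order.

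Counted over all 7 members, none was called between days 1 and 5, where 13.5% of genes were, and none between days 5 and 25, where 12.7% were. Between days 25 and 50 it was 1 of 7, beside 27.2% of genes, and over the whole span also 1 of 7, beside 22% of genes. The median log2 fold change of the members was 0.26, 0.16, -0.26 and 0.30 in these comparisons, beside 0.03, -0.02, -0.04 and -0.05 over all tested genes. The comparisons share libraries and are not independent. No member was called for a sex difference in any age change. With all libraries limma called no gene there, with 423, 683, 628 and 1460 genes at an unadjusted p below 0.05, and DESeq2 called 6, 6, 5 and 41 genes. Without CT16 and CT18, which leaves 1 library for each sex at day 50, limma called some genes but no member.

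From day 1 to day 50, some other genes of the pathway were called too, where 9.21% of all tested genes were higher and 12.8% lower. Of the 13 genes of *Sxl* splicing and m6A methylation, 4 rose and none fell. The largest rise was in the splicing factor *U2af38* at 1.14 (limma adjusted p = 0.00028), followed by *Spf45* at 0.67 (limma adjusted p = 0.00293) and *fl(2)d* at 0.61 (limma adjusted p = 0.00252), 2 factors that act with SXL or on its transcript. Among the SR proteins and their kinases, the kinase *Doa* fell by 1.19 (limma adjusted p = 4.23e-05). *B52*, the most abundant SR protein gene, had 0.58 (limma adjusted p = 0.00499), just under the fold limit. The list medians were 0.34 and 0.30, beside -0.05 over all tested genes. Only 1 of the 13 genes, *U2af38*, was still called without CT16 and CT18 (0.83, limma adjusted p = 0.0101), while *Doa* (-1.20, limma adjusted p = 0.000662) kept its call.

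Of the 3 genes tied to SXL in translation, *Unr* rose by 1.09 (limma adjusted p = 1.71e-05) and *msl-2* by 0.70 (limma adjusted p = 0.00316), and *N* had -0.07 (limma adjusted p = 0.716). Of the 5 FRU partners, the histone deacetylase gene *Rpd3* rose by 1.07 (limma adjusted p = 0.000377) and the gene of heterochromatin protein HP1 by 0.88 (limma adjusted p = 0.000299). Of the 8 DM domain and DSX-related genes, *retn* rose by 1.11 (limma adjusted p = 0.0215) and *bab2* fell by 0.72 (limma adjusted p = 0.00283). Of the 8 genes of X counting, *os* rose by 1.01 (limma adjusted p = 0.0918), and *sc* was called lower from means of only 14.4 to 5.13 (limma adjusted p = 0.0914). When CT16 and CT18 were left out, the calls of *msl-2* (0.52, limma adjusted p = 0.0411), *os* (0.84, limma adjusted p = 0.281) and *sc* (-0.78, limma adjusted p = 0.527) were lost and the others named here were kept.

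Of the 10 effector genes 5 rose from day 1 to day 50, beside 9.21% of all tested genes, and none fell. *fit* rose by 7.08 (limma adjusted p = 2.14e-06), *Yp3* by 5.79 (limma adjusted p = 9.28e-05), *Yp1* by 5.40 (limma adjusted p = 2.55e-05) and *Yp2* by 5.40 (limma adjusted p = 6.51e-05), the genes in which CT16, labelled male, carried female levels. The *fit* count of CT16 was 6089, beside 819 in CT15, 1890 in CT17 and 4876 in CT18. Without CT16 and CT18 these rises were 6.02 for *fit*, 4.98 for *Yp3*, 4.57 for *Yp1* and 4.44 for *Yp2*, all still called. Between the sexes at day 50 the same omission left 1 library for each sex, and *Cyp4d21* and *sxe2* were higher in the male library. Of the 4 fat body markers *Lsp2* (2.28, limma adjusted p = 0.0589) and *Rfabg* (2.07, limma adjusted p = 0.00676) rose over the same span and *Fbp1* (-3.12, limma adjusted p = 0.000485) and *Fbp2* (-5.66, limma adjusted p = 0.000516) fell, and their summed count was 2278 to 11263 at day 1 and 6743 to 16472 at day 50. Their part in the rise of the effector genes was not tested.

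The genes whose profile over the 18 libraries was most like that of each member were sought among the 10327 genes whose mean reached 50. The points share libraries, depth, age and sex, and the Pearson r of log2 values is given as a description only. For *Sxl* they were *C3G* (r = 0.94), a guanine nucleotide exchange factor gene, *ct* (r = 0.92), a homeodomain gene, and *slpr* (r = 0.91), a kinase gene, all 3 X-linked like *Sxl*. For *fru* they were *CG10019* (r = 0.94), *CR43196* (r = 0.93) and *JYalpha* (r = 0.92). For *dsx* they were the cadherin gene *CadN* (r = 0.92), *bol* (r = 0.90) and *CR45731* (r = 0.90).

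For *tra2* the most alike genes were *CG5281* (r = 0.93), *CG4552* (r = 0.90) and *gammaTub23C* (r = 0.88). For *her*, *ix* and *tra* the highest r was lower. It was 0.85 for *her* with *woc*, followed by *Rrp42* and *CG2662* (r = 0.83 and 0.82). It was 0.80 for *ix* with *Syx17*, followed by *CG9468* and *CG18673* (r = 0.79 each), and 0.77 for *tra* with *CG32037*, followed by *CG32365* and *CG43343* (r = 0.71 each).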

How the data were processed

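According to the labels and the methods of the study, RNA of dissected second antennal segments was amplified with SMART-Seq v4, made into Nextera XT libraries, sequenced on an Illumina NextSeq 500, aligned to dm6 in Partek and counted per gene with HTSeq. The strand setting of the counting is not given in the sources used here. The deposited signal values are normalised counts, for which the authors scaled the reads of each library by its DESeq2 size factor. Undoing that scaling gave whole reads (to within 0.01) for 100% of values. The authors' own fold changes and p-values, also in the table, were not used.

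Log2 of the deposited value plus 1 was fitted with limma 3.58.1 (trend) in R 4.3.3, with a coefficient for each of 9 groups, for the 14663 genes with at least 10 in at least 2 libraries. All 7 members passed. A gene was called at a fold above 1.5 and an adjusted p (Benjamini-Hochberg, over all tested genes) below 0.1. A change over age is the mean of the male and female changes, and fold changes of low genes are understated by the pseudocount. Members, and the 17 lists drawn up from textbook knowledge, were chosen with earlier results of these data known. All 7 members are named. One gene of the other lists is not reported here. Of each other pathway list, up to 4 called genes with the largest change and the 2 most abundant were eligible for naming, and *N*, *msl-2*, *Spf45* and the values of single genes at day 50 were picked once their values were known. In the likeness search the 3 highest r are given.

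Positions come from an Ensembl annotation of dm6. The whole reads were also tested with edgeR 4.0.16 and DESeq2 1.42.0. Further alternatives were other pseudocounts, filters, scaling and limits, added terms, and leaving out libraries. The scripts were tested on simulated data. Tables and figures used Python 3.11.15 and matplotlib 3.10.9.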

Additional observations from a re-analysis of the deposited data

How the results depend on the processing

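Of 2492 recomputed differences of single members, 2455 kept their side of the call, 25 lost a call, 12 gained one and none turned direction where called. In 14 of 23 comparisons the number of members called did not change under any alternative. Between the sexes over days 1, 5 and 25, 1 member (*Sxl*) was called, and 0 with age and sex as added terms or with all 4 ages. From day 25 to day 50, 1 member (*tra2*) was called, and 0 in edgeR, in DESeq2 and without CT16 and CT18. From day 1 to day 50 it was 1, and 2 with no fold limit. Between the sexes at day 1 and at day 5 it was 0, and 1 in DESeq2, at day 5 also with a mean of at least 50. In males it was 1 from day 25 to day 50, and 0 in edgeR, at an adjusted p below 0.05 or without CT16 and CT18. In males from day 1 to day 50 it was 1, and 0 at an adjusted p below 0.05 and 2 with no fold limit. In females from day 1 to day 50 it was 1, and 0 without CT16 and CT18. In males from day 10 to day 25 it was 0, and 1 with no fold limit. With 1 library left out in turn these counts ran from 0 to 1, with some exceptions. The count was 0 in every case between the sexes at day 1 and 1 in every case from day 1 to day 50 in both sexes. In males from day 10 to day 25 it ran from 0 to 2. Elsewhere the cause of a change was not tested.

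Counts over all genes that moved by more than 1.5 times included the following. Without CT16 and CT18, 3992 genes became 1762 from day 25 to day 50, 0 became 259 between the sexes at day 50, 2518 became 521 in males and 1007 became 92 in females from day 25 to day 50, and 2802 became 1652 in females from day 1 to day 50. In the sex comparison, 461 became 743 with all 4 ages but without these libraries. DESeq2 called 204 for 7 at day 1, 429 for 91 at day 5, 65 for 27 at day 25 and 97 for 0 at day 50 between the sexes. It called 222 for 36 from day 5 to day 25 and 1935 for 1007 from day 25 to day 50 in females, and 56 for 0 from day 5 to day 10 in males. With a mean of at least 50, 91 became 150 at day 5 and 27 became 11 at day 25. At an adjusted p below 0.05, 91 became 19 at day 5, 2157 became 1216 and 2518 became 1193 in males, and 36 became 18 and 1007 became 23 in females.

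No paired analysis was possible because the GEO labels give the libraries no replicate numbers, and the numbers used here only name libraries in the order of their records. The 2 libraries per group limit the precision, and for *tra* and *ix* counts near 100 reads add counting error.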
